A study of Mus musculus with 6 samples.

Results

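The genes described are 10 genes of eicosanoid synthesis and response. They were taken by exact gene symbol from the deposited table, where all 10 were found among 53278 genes. The enzymes are Alox5, Alox5ap and Ltc4s of the leukotriene branch and Ptgs1, Ptgs2 and Hpgds of the prostaglandin branch, and the receptors are Ptgir, Ptger4, Cysltr1 and Ptgdr2. RNA was sequenced from type 2 innate lymphoid cells (ILC2s) sorted from mouse adipose tissue, in 3 libraries treated with the agonistic anti-GITR antibody DTA-1 and 3 treated with its isotype control. GITR is a costimulatory receptor of the TNF receptor superfamily. Both groups were from C57BL/6 mice aged 8 weeks that had received 3 intraperitoneal injections of 1 µg IL-33. Both were cultured with IL-2 and IL-7 at 10 ng/mL each, and DTA-1 was used at 5 µg/mL. The culture time is 48 h in the labels and shorter in the study's results text. All cells were therefore activated in vivo and held in cytokines before RNA was taken, and unactivated or uncultured ILC2s were not analysed here. The labels do not say whether the 3 libraries of a group came from separate animals or cultures, so that p-values measure the spread between these libraries only.

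Eicosanoids are lipid mediators made from arachidonic acid after phospholipases free it from membranes. 5-lipoxygenase, to which the protein FLAP presents the substrate, makes leukotriene A4, which leukotriene C4 synthase turns into the cysteinyl leukotrienes. The cyclooxygenases make prostaglandin H2, from which terminal synthases make prostaglandin D2, prostaglandin E2 and prostacyclin. In ILC2s, cysteinyl leukotrienes and prostaglandin D2 are known as activating signals, and prostacyclin and prostaglandin E2 as restraining ones that act through receptors coupled to cyclic AMP.

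The libraries held 30569351 to 35131329 counts. All 12 ILC2 marker genes were detected, at a summed 11870 to 12430 normalized counts with isotype control and 12600 to 16680 with DTA-1. Il5 alone made up 5063 to 9695 of this over all libraries. In normalized counts Il5, Areg, Id2 and Il13 were highest in DTA-1 replicates 2 and 3, and Gata3, Il1rl1, Icos and Thy1 were lowest there. The sum thus mixes genes that differed in opposite directions. Normalized counts are CPM after TMM scaling. By the chi-square of counts, the library labelled DTA-1 replicate 1 stood nearer to isotype control than to its own group. Per degree of freedom it was 9.64 to 11.3 against the isotype control libraries but 27.1 and 28.2 against DTA-1 replicates 2 and 3, which lay 11.4 apart. Pearson's r of log2 values hardly separated them, at 0.977 to 0.979 with isotype control and 0.977 and 0.976 with DTA-1 replicates 2 and 3. On principal component 2 this library stood apart from all others, at −45.4 against −6.76 to 21.1. The tested genes among the 10 are given with all libraries and, in the plot of fold changes, without this library.

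The promoters of 4 of the genes are shown first. Ptgir and Ptger4 were the receptors with the largest fold changes among the 7 tested genes, and Hpgds differed the other way. Alox5 was the most abundant of the enzymes among the 10 genes. RefSeq promoters (GRCm38.p6) were at hand for 8 of the 10 genes, and none is shown for Alox5ap or Cysltr1. Each runs 5′ to 3′ on the gene's own strand from 250 bases before the transcription start to 50 bases after it. Capitals mark letters that match a searched motif.
Ptgir: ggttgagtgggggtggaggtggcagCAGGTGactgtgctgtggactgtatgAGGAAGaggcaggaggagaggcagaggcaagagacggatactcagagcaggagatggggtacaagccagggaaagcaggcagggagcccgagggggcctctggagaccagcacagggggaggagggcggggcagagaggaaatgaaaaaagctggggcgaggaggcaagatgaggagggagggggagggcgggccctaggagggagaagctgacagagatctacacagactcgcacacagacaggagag
Ptger4: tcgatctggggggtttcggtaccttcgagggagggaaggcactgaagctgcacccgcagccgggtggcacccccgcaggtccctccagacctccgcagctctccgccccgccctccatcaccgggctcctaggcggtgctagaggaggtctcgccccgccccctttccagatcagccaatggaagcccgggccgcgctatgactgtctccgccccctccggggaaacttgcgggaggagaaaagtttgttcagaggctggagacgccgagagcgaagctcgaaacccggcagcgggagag
Hpgds: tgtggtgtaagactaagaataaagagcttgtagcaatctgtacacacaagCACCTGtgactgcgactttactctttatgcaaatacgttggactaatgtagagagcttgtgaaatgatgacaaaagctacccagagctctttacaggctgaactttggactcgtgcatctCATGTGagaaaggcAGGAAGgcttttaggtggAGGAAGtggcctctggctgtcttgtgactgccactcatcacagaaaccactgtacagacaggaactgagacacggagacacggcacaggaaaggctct
Alox5: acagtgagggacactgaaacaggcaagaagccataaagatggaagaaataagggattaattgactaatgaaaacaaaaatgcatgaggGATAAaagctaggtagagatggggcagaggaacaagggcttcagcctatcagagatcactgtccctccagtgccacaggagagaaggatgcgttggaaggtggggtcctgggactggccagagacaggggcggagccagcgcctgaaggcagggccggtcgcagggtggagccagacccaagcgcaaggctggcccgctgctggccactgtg
The windows are chr7:16906240-16906539 on the plus strand for Ptgir, chr15:5244138-5244437 on the minus strand for Ptger4, chr6:65144681-65144980 on the minus strand for Hpgds and chr6:116461129-116461428 on the minus strand for Alox5. The GC content was 62.0% for Ptgir, 67.0% for Ptger4, 46.7% for Hpgds and 55.7% for Alox5, against a median of 52.7% over all 32851 promoters of the table. Both strands were searched for 6 motifs, of which overlapping matches were all counted. The NF-κB consensus occurred in 4.51% of all promoters. The motif of GATA factors, searched as GATAA, occurred in 25.4%. The motif of AP-1, searched as TGANTCA, occurred in 7.81%. The core of the cyclic AMP response element, searched as TGACGT, occurred in 7.51%. The ETS motif, searched as AGGAAG, occurred in 35.4%. The E-box, searched as CANNTG, occurred in 72.3%. Counted from the start, Ptgir held the ETS motif at −199 and an E-box at −225. Ptger4 held none of the 6 motifs in this window. Hpgds held the ETS motif at −66 and −48 and E-boxes at −200 and −80. Alox5 held the GATA motif at −162. The NF-κB consensus was found in none of the 8 promoters. A match is a run of letters, and binding was not measured.

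The design compared DTA-1 with isotype control, which asks what GITR engagement changes in activated ILC2s. Mean levels of the receptor genes Ptgir, Ptger4 and Cysltr1 were 1.30-fold, 1.20-fold and 1.13-fold those of isotype control, Hpgds was at 0.838-fold, and Alox5, Alox5ap and Ptgs1 differed by less than their error. None of these differences passed the test with all 6 libraries. Without DTA-1 replicate 1, Ptgir and Ptger4 passed an adjusted p of 0.05 but not the fold limit. That library was singled out in these same data because its counts lay near isotype control. Leaving it out favours larger differences and smaller p-values, so all fits without it are descriptions only. In bulk RNA, fewer cells of a type and less RNA per cell cannot be told apart. A gene was called when its adjusted p was under 0.05 by the quasi-likelihood test of edgeR, adjusted after Benjamini and Hochberg, and its change was at least 1.5-fold. Of the 10 genes, 7 had enough counts to be tested and 0 were called, as were 0% of the 14361 genes tested. At an unadjusted p under 0.05 there were 2 of 7, both higher with DTA-1, namely Ptgir and Cysltr1, where 7.22% of all tested genes passed, 4.11% higher and 3.11% lower. DESeq2's Wald test called 0.0983% of its genes and 0 of the 10. Over the 7 genes the median log2 fold change was −0.0024 (3 positive and 4 negative), beside −0.0078 over all tested genes. With DTA-1 replicate 1 left out the median was 0.22, 1.7% of all tested genes had an adjusted p under 0.05 at any fold (1.35% higher and 0.342% lower), and 0.744% were called. The 7 genes then included 2 with an adjusted p under 0.05, both higher, and 0 called. The 3 genes not tested, Ltc4s, Ptgs2 and Ptgdr2, are described by their counts.

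**Figure D1:**
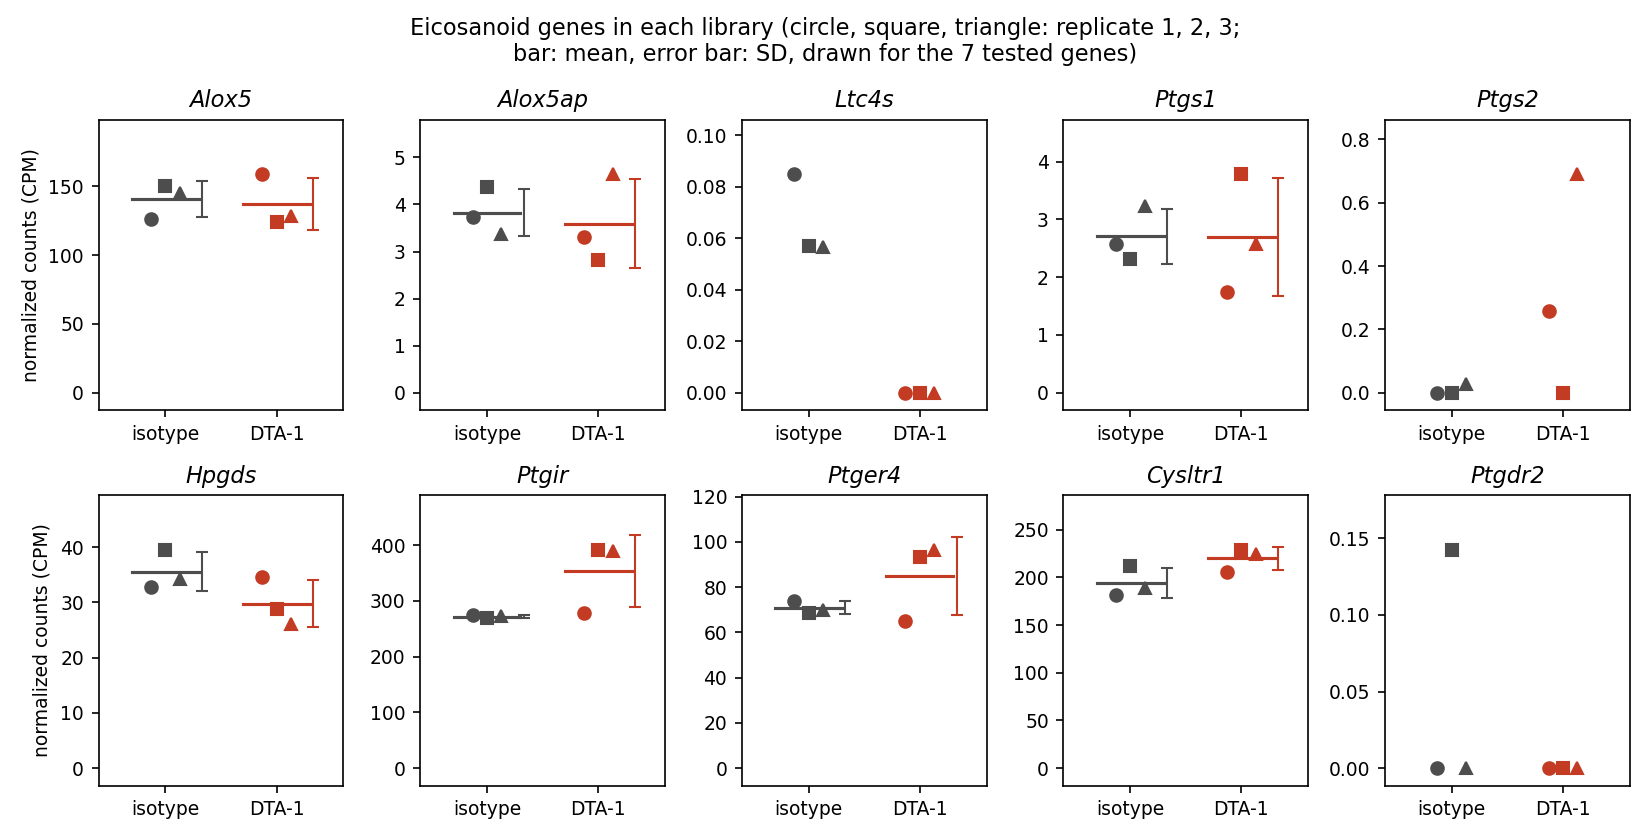
Normalized counts (CPM after TMM scaling) of the 10 eicosanoid genes in the 3 isotype control (grey) and 3 DTA-1 (red) libraries, each panel on its own linear axis that includes 0, with bars at group means and error bars of 1 SD for the 7 tested genes. Ptgir sits at 391.8 and 389.6 in DTA-1 replicates 2 and 3 but at 279.0 in replicate 1, next to the isotype control libraries at 268.6 to 274.3.

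Among the 7 tested genes, the largest positive log2 fold changes were in Ptgir and Ptger4, receptor genes of prostacyclin and prostaglandin E2. Ptgir (chr7:16906490-16910905, plus strand) encodes IP, the prostacyclin receptor. It had 274.3, 268.6 and 272.7 normalized counts with isotype control and 279.0, 391.8 and 389.6 with DTA-1, in the order of replicates 1, 2 and 3. All 3 DTA-1 libraries lay above all isotype control libraries, as did 5.26% of all tested genes, but replicate 1 exceeded the highest of them only narrowly. The means were 271.9 ± 2.92 and 353.5 ± 64.5 (SD, n = 3 each). The log2 fold change was 0.38 ± 0.11 (standard error, SE, 95% interval 0.13 to 0.62), or 1.30-fold, with edgeR's unadjusted p = 0.00579 and adjusted p = 0.627. With DTA-1 replicate 1 left out, the value was 0.52 ± 0.05 (SE), that is 1.44-fold, with an edgeR adjusted p of 0.00129. Across all settings the adjusted p lay between 0.00129 and 0.999.

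Ptger4 (chr15:5206661-5244187, minus strand) encodes EP4, a receptor for prostaglandin E2. It had 74.1, 68.6 and 70.0 normalized counts with isotype control and 64.9, 93.3 and 96.6 with DTA-1. DTA-1 replicate 1 was the lowest of the 6 libraries and replicates 2 and 3 were the highest, so the groups overlapped. The means were 70.9 ± 2.81 and 84.9 ± 17.4 (SD, n = 3 each), with a log2 fold change of 0.26 ± 0.13 (SE, edgeR adjusted p = 0.718). Without DTA-1 replicate 1 it was 0.42 ± 0.08 (SE) on the log2 scale, or 1.34-fold (edgeR adjusted p = 0.0267, lowest and highest of all settings 0.0267 and 0.999). Per kilobase of exon, Ptgir was 7.39 to 8.57 times the level of Ptger4 in the 6 libraries.

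Cysltr1 (chrX:106574346-106603679, minus strand), a receptor for cysteinyl leukotrienes, had 181.7, 211.8 and 189.1 normalized counts with isotype control and 206.2, 229.1 and 224.3 with DTA-1. DTA-1 replicates 2 and 3 were above every isotype control library, and replicate 1 was below isotype control replicate 2. The means were 194.2 ± 15.7 and 219.8 ± 12.1 (SD, n = 3 each). The log2 fold change was 0.18 ± 0.07 (SE, edgeR adjusted p = 0.657, unadjusted p = 0.0355), and 0.22 without DTA-1 replicate 1 (edgeR adjusted p = 0.215, lowest and highest of all settings 0.215 and 0.999). Ptgdr2 (chr19:10937160-10942511, plus strand) encodes CRTH2, the prostaglandin D2 receptor by which human ILC2s are often sorted. It had 0, 5.05 and 0 expected counts with isotype control and 0 in all libraries with DTA-1, where a count of 0 allows up to 3 counts, or 0.0941 to 0.0970 normalized counts. That limit covers counting error only. At this depth its transcript was therefore at or near the limit of detection in both groups. Ptgdr, the other prostaglandin D2 receptor, had 0 counts in all 6 libraries.

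Genes on the opposite strand overlap 3 of the receptors. Ttc33 overlaps Ptger4 (mean counts 1115 and 2583), Gm5127 overlaps Cysltr1 (mean counts 584 and 6867) and Ccdc86 overlaps Ptgdr2 (mean counts 1240 and 0.84). Whether the authors' counting used strand is not given in the sources used here, so that reads where these pairs overlap may be uncertain.

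**Figure D2:**
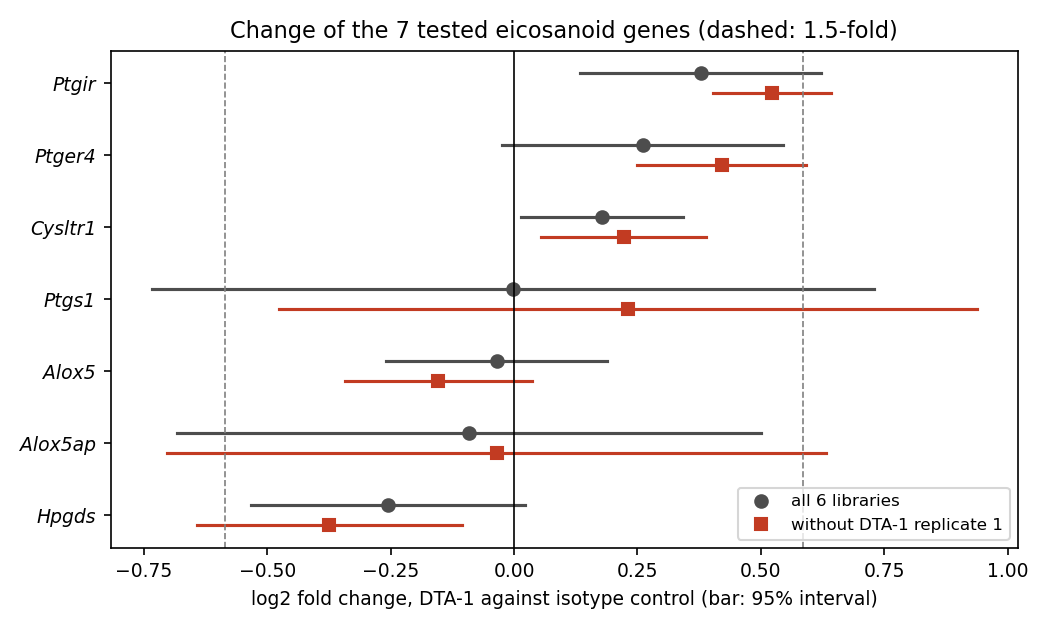
Log2 fold change of DTA-1 against isotype control for the 7 tested eicosanoid genes (x axis, 95% intervals; 1 row per gene), with all 6 libraries (grey circles) and without DTA-1 replicate 1 (red squares); dashed lines mark 1.5-fold. The 3 receptors are right of 0 in both fits, Ptgir at 0.38 and 0.52, and Hpgds is left of 0 at −0.25 and −0.37.

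In the leukotriene branch, Alox5 was abundant, and Ltc4s, the synthase of the cysteinyl leukotriene arm, was nearly absent. Alox5 (chr6:116410077-116461178, minus strand), 5-lipoxygenase, had 126.1, 150.6 and 145.3 normalized counts with isotype control and 158.8, 124.1 and 128.8 with DTA-1. DTA-1 replicate 1 was the highest library and replicate 2 the lowest, so that the groups overlapped fully. The means were 140.7 ± 12.9 and 137.2 ± 18.8 (SD, n = 3 each), and the log2 fold change was −0.04 with a 95% interval of −0.26 to 0.19 (edgeR adjusted p = 0.960). A change of 1.5-fold in either direction lies outside that interval. Alox5ap (chr5:149264767-149288153, plus strand), which encodes FLAP, had 132, 153 and 119 counts with isotype control and 102, 88 and 148 with DTA-1. Its normalized counts were 3.82 ± 0.501 and 3.59 ± 0.945 (SD, n = 3 each), and the log2 fold change was −0.09 ± 0.27 (SE, edgeR adjusted p = 0.961). The highest and the lowest of the 6 libraries were both DTA-1. Per kilobase of exon, Alox5 was 9.60 to 16.6 times as high as Alox5ap in the 6 libraries.

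Ltc4s (chr11:50236461-50238616, minus strand), the synthase that joins glutathione to leukotriene A4, had 3, 2 and 2 counts with isotype control and 0 in all libraries with DTA-1. Every library was at or under 3 counts, the limit that a count of 0 allows, so no fold is given. The antisense gene Gm26542 that overlaps Ltc4s averaged 5.5 counts. Mgst2, a microsomal glutathione transferase that also has leukotriene C4 synthase activity, had 103, 76 and 71 counts with isotype control and 70, 71 and 68 with DTA-1 (log2 fold change −0.09 ± 0.29 SE, edgeR adjusted p = 0.965). Lta4h, which makes leukotriene B4 from the same intermediate, had 226.1 to 237.2 normalized counts with isotype control and 222.8 to 231.4 with DTA-1 (log2 fold change −0.04 ± 0.06 SE, edgeR adjusted p = 0.930). The enzyme of the leukotriene B4 arm was thus close to Alox5 in level, at 37.5 against 33.8 normalized counts per kilobase, while Mgst2 was at 0.619 and Ltc4s at 0.0326 per kilobase. Mgst3, a related microsomal glutathione transferase, was at 14.8 per kilobase (log2 fold change −0.13 ± 0.14 SE, edgeR adjusted p = 0.880). Mgst2, Mgst3 and Lta4h were singled out after their values were seen.

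In the prostaglandin branch the cyclooxygenases were scarce and the prostaglandin D synthase was not. Ptgs1 (chr2:36230426-36252272, plus strand), cyclooxygenase 1, had 91.0, 81 and 114 expected counts with isotype control and 53.7, 118 and 82 with DTA-1. Its normalized counts were 2.70 ± 0.475 and 2.70 ± 1.02 (SD, n = 3 each), with a log2 fold change of −0.0024 and a 95% interval of −0.73 to 0.73 (edgeR adjusted p = 0.999). That interval reaches past 1.5-fold on both sides, so a change of that size either way cannot be told from none. Ptgs2 (chr1:150100031-150108227, plus strand), the inducible cyclooxygenase 2, had 0, 0 and 1 counts with isotype control and 8, 0 and 22 with DTA-1. Its counts in DTA-1 came from replicates 1 and 3, and replicate 2 had 0. Ptgs2 was removed by the filter on low counts, and DESeq2's Wald test, which kept it, gave an adjusted p of 0.566.

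Hpgds (chr6:65117293-65144908, minus strand), the hematopoietic prostaglandin D synthase, was the only tested gene of the 7 whose difference was negative by more than its standard error. It had 32.8, 39.5 and 34.3 normalized counts with isotype control and 34.5, 28.7 and 26.1 with DTA-1. DTA-1 replicates 2 and 3 were below every isotype control library, while replicate 1 lay among them. The means were 35.5 ± 3.53 and 29.8 ± 4.30 (SD, n = 3 each), with a log2 fold change of −0.25 ± 0.13 (SE, edgeR adjusted p = 0.717). Without DTA-1 replicate 1 it was −0.37 ± 0.12 (SE, edgeR adjusted p = 0.191, lowest and highest of all settings 0.191 and 0.999). Per kilobase of exon, Hpgds was 4.60 to 11.9 times as high as Ptgs1 across the 6 libraries. Ptgds, the lipocalin-type prostaglandin D synthase, had 0, 1 and 3 counts with isotype control and 0 in all libraries with DTA-1, at or under the limit that a count of 0 allows.

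Mast cells, eosinophils and other leukocytes also use these genes, so marker genes of other cell types were summed in each library. The sort removed cells with FcεRI, a receptor of mast cells and basophils, and, per the study's methods, kept CD117+ cells, while its results text names the IL-7 receptor in place of CD117. All 9 mast cell markers were detected at a summed 29.7 to 49.0 normalized counts with isotype control and 39.7 to 73.9 with DTA-1, of which Hdc alone had 12.4 to 28.8. Mcpt4, Ms4a2 and Mrgprb2 each stayed at or below 0.439. Cpa3 had 265, 256 and 154 counts with isotype control and 211, 605 and 409 with DTA-1, and Cma1 had 130, 170 and 171 counts and 114, 442 and 346. Cpa3 and Cma1 were thus highest in DTA-1 replicates 2 and 3, the libraries where Ptgir and Ptger4 were highest. Ms4a2 was also highest in both in normalized counts. It was low, at 0, 0 and 7 counts with isotype control and 0, 8 and 7 with DTA-1. The other markers of the list, the proteases Tpsb2 and Tpsab1 among them, were not highest in both. Tpsb2 had 155, 212 and 177 counts with isotype control and 113, 258 and 158 with DTA-1. Tpsab1 had 26, 16 and 57 counts and 1, 13 and 33, and Hdc had 734, 965 and 438 counts and 741, 898 and 528. The 3 basophil markers summed to at most 13.3 and 15.8 in the same order, the 5 eosinophil markers to 5.79 to 7.74 and 2.95 to 5.83, the 8 macrophage markers to 6.44 to 12.3 and 8.67 to 11.9, and the 6 T cell markers to 49.7 to 65.6 and 58.6 to 62.2. Single genes carried much of these sums. In normalized counts over all libraries, Cd3g had 36.2 to 48.6, Cd200r3 8.25 to 15.4, Ccr3 2.82 to 7.29 and Cd68 3.96 to 10.6. Of the T cell list, Lck had 9.28 to 14.99 and Cd3e 2.34 to 3.72, while Cd4 and Cd8b1 each stayed at or below 0.9725. Adgre1 of the macrophage list had 0.256 to 3.77. The eosinophil markers Prg2 and Epx and the macrophage markers C1qa and C1qc each stayed at or below 0.1255. Markers of neutrophils, fibroblasts, platelets and adipocytes summed to at most 8.33 in any library. Ear6, C1qb, S100a8, S100a9, Retnlg, Dpt, Cd8a and Lep had 0 counts in all libraries. The part of such cells in the levels and differences of the 10 genes was not tested.

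The 10 genes spanned a wide range of levels. Per kilobase of exon, averaged over the 6 libraries, Ptgir was highest at 93.8 normalized counts, above 95.8% of all tested genes. Cysltr1 followed at 40.3 and Alox5 at 33.8, and the ranges of these 2 genes overlapped. Ptger4 came next at 11.7, then Hpgds at 5.08, Alox5ap at 2.61 and Ptgs1 at 0.696, and no range overlapped with the next. Ptgs2, Ltc4s and Ptgdr2 were at 0.0356, 0.0326 and 0.00899 and did not differ beyond their spread. With the median length of the coding transcripts in place of the exon union, an alternative chosen after seeing the data, Alox5 (72.0) stood above Cysltr1 (66.8) with overlapping ranges. Hpgds (9.40, range 7.51 to 11.4) and Alox5ap (8.20, range 6.24 to 10.3) then overlapped too, and the order of the others was the same.

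**Figure D3:**
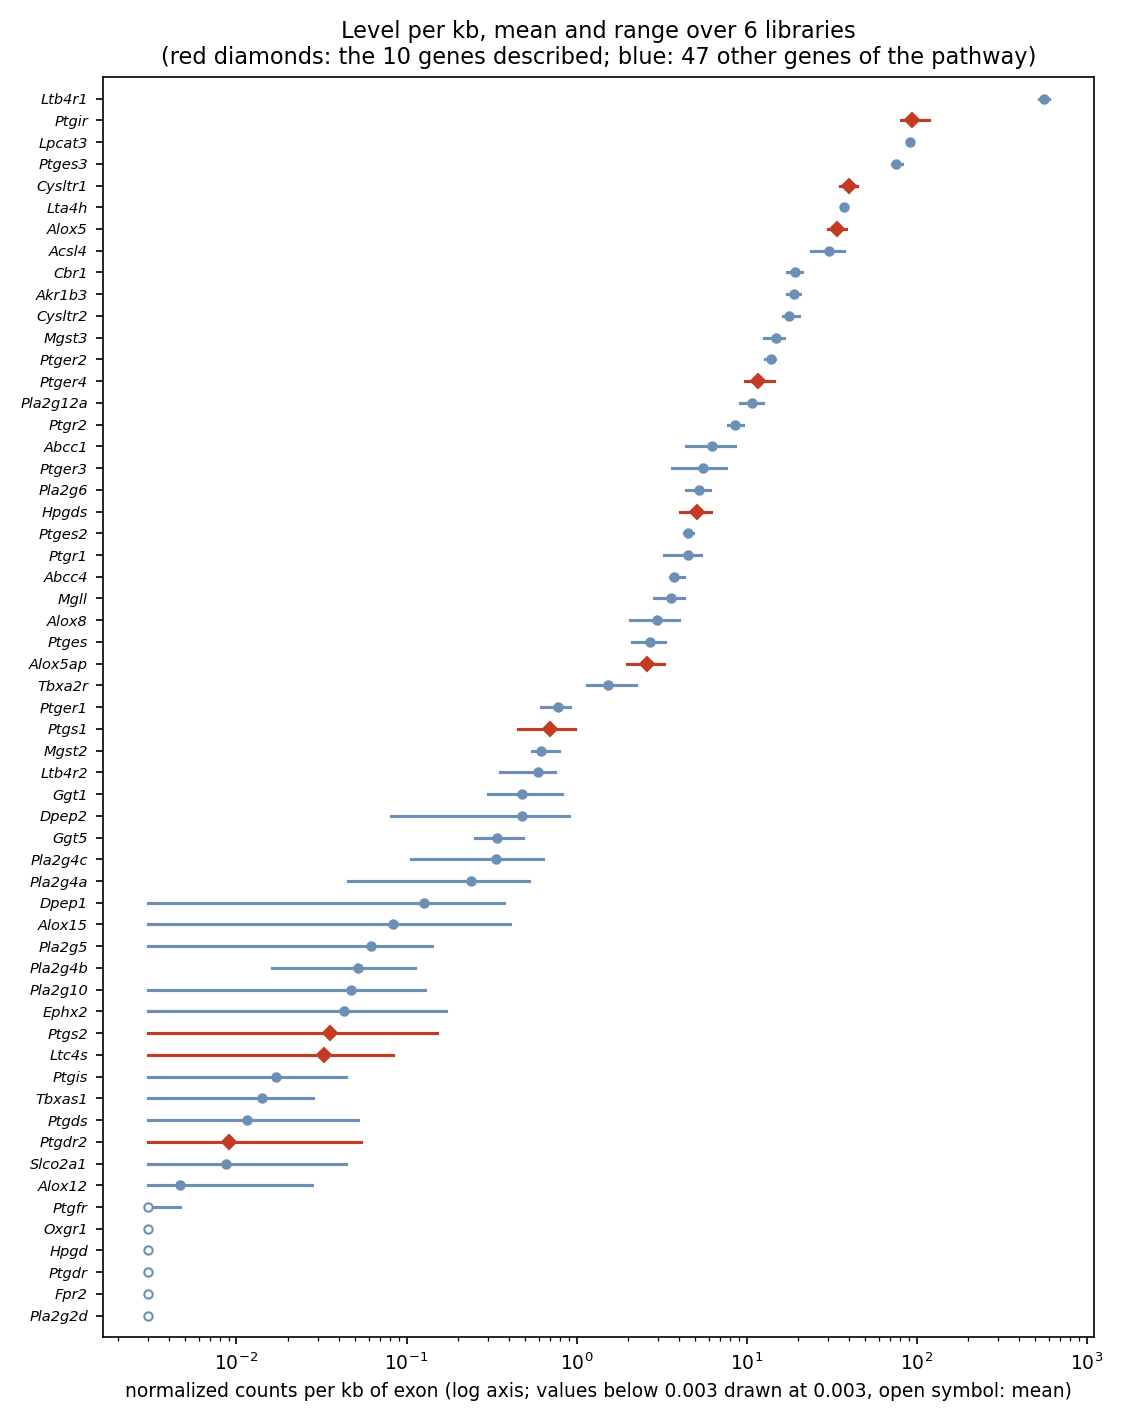
Normalized counts per kilobase of exon (log axis) of the 10 eicosanoid genes (red diamonds) and 47 other genes of the pathway (blue circles), as the mean (symbol) and range (line) over the 6 libraries. Ltb4r1 at 562.5 and Ptgir at 93.8 stand at the top, and Ptgs2, Ltc4s and Ptgdr2 are at 0.0356 or less.

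Of 47 other eicosanoid genes listed by role, 31 were tested, 15 with a positive and 16 with a negative log2 fold change (median −0.03), and 0 were called. At an unadjusted p under 0.05 there were 2 higher and 2 lower, against 4.11% and 3.11% of all tested genes. The groups did not overlap for 3 higher and 2 lower genes of the 31, against 5.26% and 6.03% of all tested genes. With DTA-1 replicate 1 left out, the median was −0.04. Among the other receptors, 7 of 11 were tested and 4 had at most 3 counts in every library. Ltb4r1, which encodes the leukotriene B4 receptor BLT1, was the highest of all listed genes at 562.5 normalized counts per kilobase. It had 731.2 to 814.8 normalized counts with isotype control and 767.2 to 836.5 with DTA-1 (log2 fold change 0.03 ± 0.07 SE, edgeR adjusted p = 0.952). Ptger3, the prostaglandin E2 receptor EP3, which lowers cyclic AMP, had 33.7, 34.2 and 42.9 normalized counts with isotype control and 30.1, 20.6 and 27.8 with DTA-1. Each library with DTA-1 was lower than every isotype control library, as in 6.03% of all tested genes, with a log2 fold change of −0.50 ± 0.15 (SE, edgeR adjusted p = 0.627, unadjusted p = 0.00737). Without DTA-1 replicate 1 it was −0.61 (edgeR adjusted p = 0.112, lowest and highest of all settings 0.112 and 0.999). Within the prostaglandin E2 receptors the EP4 gene thus had a positive value and the EP3 gene a negative one, and Ptger2, the EP2 gene, had 66.7 to 72.5 normalized counts with isotype control and 72.0 to 76.7 with DTA-1 (log2 fold change 0.08 ± 0.08 SE, edgeR adjusted p = 0.859). Ptger1, the EP1 gene, had a log2 fold change of −0.10 ± 0.24 (SE, edgeR adjusted p = 0.953), a value that is uncertain because the use of strand in counting is not given. Ptger1 and Ptger2 were singled out after their values were seen.

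Among the genes of substrate release and return, 7 of 11 were tested. Pla2g4a, the cytosolic phospholipase A2 that frees arachidonic acid, was low throughout, at 119, 46 and 76 counts with isotype control and 31, 9 and 35 with DTA-1. Each DTA-1 library was below every isotype control library in normalized counts, as in 6.03% of all tested genes. The log2 fold change was −1.51 ± 0.53 (SE, edgeR adjusted p = 0.632, unadjusted p = 0.0152). Without DTA-1 replicate 1 it was −1.71 (edgeR adjusted p = 0.245, lowest and highest of all settings 0.245 and 0.999). Acsl4 is an acyl-CoA synthetase that returns arachidonic acid to lipids. It had 130.0, 162.8 and 141.6 normalized counts with isotype control and 164.0, 192.6 and 202.7 with DTA-1. Its highest isotype control library was just under its lowest DTA-1 library, and 5.26% of all tested genes were separated in this direction. The log2 fold change was 0.36 ± 0.10 (SE, edgeR adjusted p = 0.627, unadjusted p = 0.00354), and 0.45 without DTA-1 replicate 1 (edgeR adjusted p = 0.0454, lowest and highest of all settings 0.0454 and 0.999). Lpcat3, which also returns arachidonic acid to lipids, was the most abundant of this role at 91.9 normalized counts per kilobase, at 296.5 to 300.7 normalized counts with isotype control and 299.0 to 303.8 with DTA-1.

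Of 14 terminal enzymes, 9 were tested. Ptges3, the cytosolic prostaglandin E synthase, which is also a cochaperone, was the highest of them at 75.9 normalized counts per kilobase (log2 fold change −0.03 ± 0.07 SE, edgeR adjusted p = 0.954). Alox8, an 8-lipoxygenase, had 7.35, 9.64 and 9.69 normalized counts with isotype control and 10.5, 12.1 and 14.3 with DTA-1. It was higher in every DTA-1 library than in any isotype control library, as were 5.26% of all tested genes. Its log2 fold change was 0.47 ± 0.18 (SE, edgeR adjusted p = 0.655, unadjusted p = 0.0277), and 0.57 without DTA-1 replicate 1 (edgeR adjusted p = 0.204, lowest and highest of all settings 0.204 and 0.999). Ptgr2, a prostaglandin reductase, was the highest of 8 breakdown genes at 8.49 normalized counts per kilobase, and its log2 fold change was −0.03 ± 0.10 (SE, edgeR adjusted p = 0.961). Hpgd, the dehydrogenase that inactivates prostaglandins, had 0 counts in all 6 libraries. Of 3 transporters, Abcc1, an exporter of leukotriene C4, was the highest at 6.27 per kilobase, and had 80.6, 83.9 and 87.0 normalized counts with isotype control and 66.8, 128.9 and 120.3 with DTA-1. Like Ptger4, it was lowest of all in DTA-1 replicate 1 and highest in replicates 2 and 3. Its log2 fold change was 0.33 ± 0.19 (SE, edgeR adjusted p = 0.740), and 0.57 without DTA-1 replicate 1 (edgeR adjusted p = 0.00524, lowest and highest of all settings 0.00524 and 0.999).

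**Figure D4:**
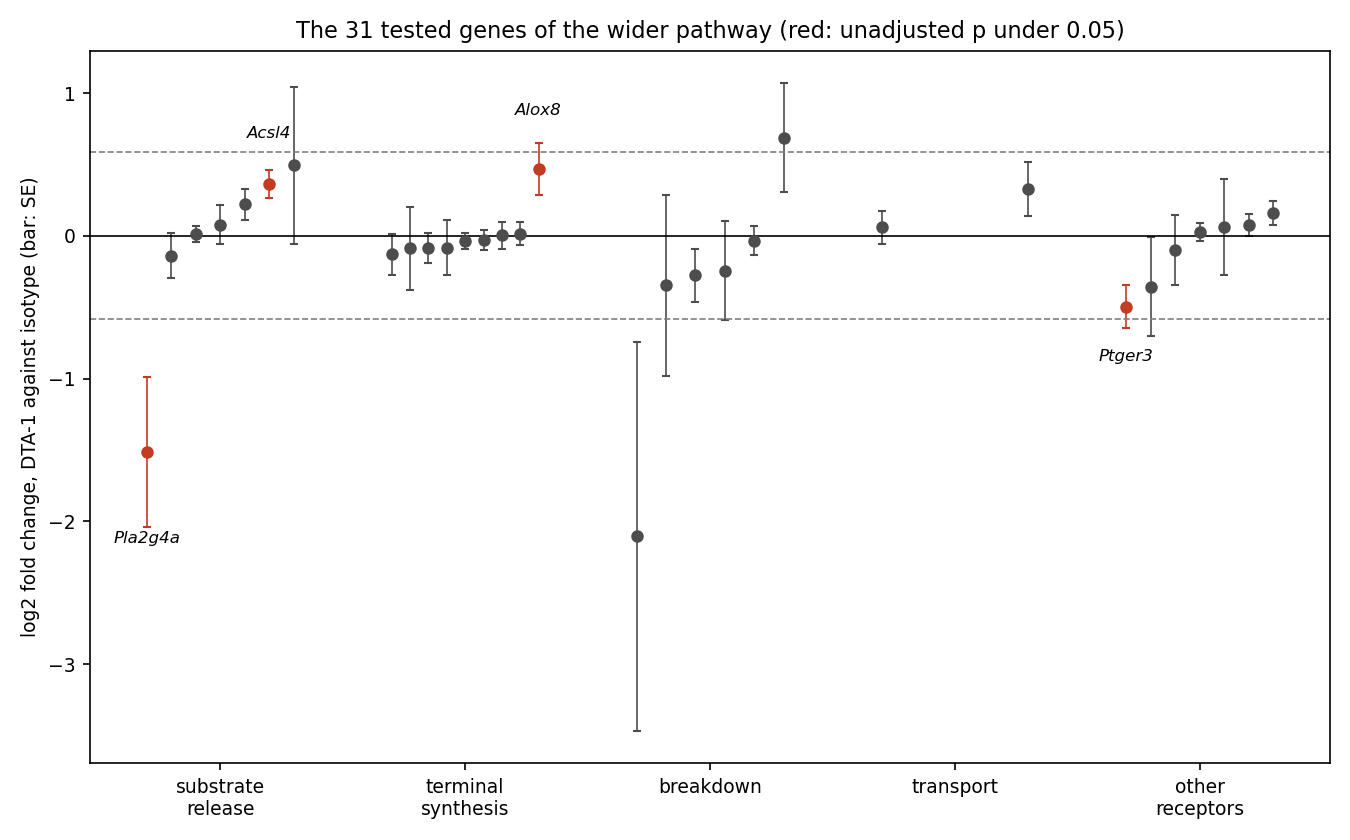
Log2 fold change of DTA-1 against isotype control (y axis, error bars of 1 standard error) of the 31 tested genes of the wider eicosanoid pathway by role, with dashed lines at 1.5-fold and red points for an unadjusted p under 0.05. Pla2g4a is at −1.51 and Ptger3 at −0.50, Acsl4 at 0.36 and Alox8 at 0.47.

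For the 5 genes with a mean of at least 10 normalized counts, the genes of most similar pattern were sought by Pearson's r of log2(normalized counts + 1) over the 6 libraries, among 8722 genes. The 6 points share the 2 groups and the library that stood apart, so r is a description. Ptgir was most like Cd82 (0.997), Tmem184b (0.997) and Nfkb2 (0.996), Ptger4 most like Spry1 (0.997), Ebi3 (0.996) and Icam1 (0.996), and r between Ptgir and Ptger4 was 0.957. Cysltr1 was most like Sacm1l (0.989), Nckap1 (0.988) and Copb2 (0.988). Hpgds was most like Nek7 (0.991), Tm6sf1 (0.990) and Ccdc50 (0.988), and Alox5 most like Strbp (0.998), Dis3l2 (0.981) and Ccr2 (0.978). None of these lists held another of the 10 eicosanoid genes.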

How the data were processed

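RNA of 3 isotype control and 3 DTA-1 libraries was sequenced from 10 ng of input each. Per the labels' processing notes the authors used bcl2fastq 2.17.1.14, STAR 2.5.3a, Partek and the mm10 build. The deposited values are expected counts per gene, without normalization, and 79.5% of them were whole within 1e-09. Annotation release, strand and the handling of reads with several matches are not given in the sources used here. Starts fitted GENCODE M21 (GRCm38) in 48290 of 49721 shared symbols. The table's ends were 1 base higher in 47741, so printed ends are 1 lower.

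Expected counts were rounded. Genes were filtered by filterByExpr, which left 14361, scaled by TMM and tested by edgeR 4.0.16's robust quasi-likelihood F test (R 4.3.3) with Benjamini-Hochberg adjustment over all of them. Called genes had an adjusted p under 0.05 and at least 1.5-fold, the threshold of the study. The study reported differentially expressed genes at this threshold, while 0 of the 14361 were called here with all libraries. The cause of that difference was not tested. Normalized counts are CPM after TMM, and per-kilobase levels divide by the exon union of GENCODE M21. On simulated data drawn for this comparison over 14361 genes, 194 of 200 genes changed 2-fold were recovered (97%), with 11 false calls. The simulation gave every gene the same dispersion (0.0256), changed only well-counted genes and shifted all DTA-1 libraries alike. It held no library like DTA-1 replicate 1, so the 97% checks the code and does not measure power in these data. DESeq2 1.42.0 and limma 3.58.1 (prior count 2) were alternatives, as were other scalings and filters, a replicate block, each library left out, an unadjusted p and no fold limit.

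Groups follow the labels. Correlations of same-numbered libraries' deviations from their group means were −0.0069 to 0.0152, and the main fit did not pair them. Such values cannot exclude that same-numbered libraries shared an animal or a culture, which the labels do not say. An exact permutation test of 3 against 3 cannot reach p under 0.05, so none was run. The genes, lists and tests were chosen with earlier results of these data known, and counts over lists are descriptions. Pathway genes were named if highest per kilobase in their role, at an unadjusted p under 0.05, or called. Lta4h, Mgst2, Mgst3, Ptgdr, Ptgds, Hpgd, Ptger1 and Ptger2 were named after their values were seen.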

Additional observations from a re-analysis of the deposited data

How the results depend on the processing

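No eicosanoid gene among the 10 was called under any of the alternatives. Over all genes, the count of called genes went from 0 to 20 (10 higher, 10 lower) with DESeq2's Wald test, to 2 without a filter on low counts, to 1 with the replicate number as a block, and to 337 (156 higher, 181 lower) with an unadjusted p under 0.05 and at least 1.5-fold. The block changed no call among the 10 eicosanoid genes or the 47 pathway genes. Leaving out 1 library gave 0 to 111 called genes, and the 111 (87 higher, 24 lower) came without DTA-1 replicate 1. Without it, the median log2 fold change of the 7 tested genes was 0.2226, the highest of −0.0326 to 0.2226 over libraries left out. With an unadjusted p under 0.05 and at least 1.5-fold, 1 pathway gene passed, Pla2g4a (lower).

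For 16 genes, which were the 7 tested eicosanoid genes and the pathway genes named by rule, 188 of 207 values kept their direction and their side of the threshold and 19 changed sign. With a library left out, log2 fold changes ran from −0.1537 to 0.0365 for Alox5, −0.3211 to 0.0611 for Alox5ap, −0.3169 to 0.2311 for Ptgs1, −0.0684 to 0.0238 for Ptges3, −0.1249 to 0.0231 for Ptgr2 and −0.0146 to 0.067 for Ltb4r1. Of the genes singled out after their values were seen, which are not in this tally, Mgst2 (−0.1919 to 0.0932) and Ptger1 (−0.2531 to 0.0317) also changed sign, and Lta4h, Mgst3 and Ptger2 did not. Ptgs1 was also at 0.0023 with the Wald test and 0.0014 with DESeq2's size factors. With total counts, Lpcat3 was at −0.0214 and Ltb4r1 at −0.0098. The cause was not tested. Ptgir, Ptger4, Cysltr1 and Hpgds kept their direction throughout. Ptgs2, Ltc4s and Ptgdr2 were removed by the filter on low counts, so that their differences were not resolved at this depth.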
